A study of Mus musculus with 6 samples.

Results

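The genes described are the keratins, claudins and desmosome genes of 6 mouse RNA-seq libraries. They were chosen by symbol alone: every numbered keratin (*Krt*), claudin (*Cldn*), desmoglein (*Dsg*), desmocollin (*Dsc*), plakophilin (*Pkp*) and zonula occludens gene (*Tjp*) in the deposited annotation, together with *Dsp*, *Jup*, *Cdsn*, *Ocln*, *Epcam* and *Cgn*. The choice gave 92 of 30281 symbols: 47 keratins, 23 claudins, 9 desmosomal cadherins, 6 desmosome plaque genes, 5 other tight junction genes, and *Cdsn* and *Epcam*. Of the 6 libraries, 2 came from mouse embryo fibroblasts (MEFs), labelled *Tsc2*+/+ p53-/- and *Tsc2*-/- p53-/- and not treated. The other 4 came from MKOC and TJ cells, lines of kidney epithelial cells labelled *Tsc2*-null, the labels adding that TJ cells derive from a tumor. Each of these lines was left untreated or received 100 nM rapamycin, an inhibitor of mTOR complex 1, for 18 hours, and the protocol in the labels gives serum-free medium for all cells. Each condition is 1 library of a cell line, no kidney line labelled as *Tsc2*-expressing is among the libraries analysed here, and *Tsc2* is the gene of the tuberous sclerosis complex that restrains mTOR complex 1.

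Keratins are the intermediate filament proteins of epithelial cells, and a filament is built from pairs of a type I (acidic) and a type II (basic) chain. *Krt8* and *Krt18* form the pair of simple epithelia such as kidney tubule, often with *Krt7* and *Krt19*. Desmosomes tie keratin filaments of neighboring cells together through desmogleins and desmocollins, which bind plakoglobin (*Jup*), plakophilins and desmoplakin (*Dsp*). Claudins and occludin seal the tight junction above them, held by zonula occludens proteins and cingulin.

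Estimated counts summed to between 22887020 and 37505004 per library. RNA of the gene named in the labels was not absent: *Tsc2* stood at 22.6 TPM (a transcript's share of all transcripts, corrected for its length) in MEFs labelled *Tsc2*+/+ and 10.5 TPM in those labelled *Tsc2*-/-. It stood at 49.1 and 44.0 TPM in untreated MKOC and TJ cells and 19.5 and 19.1 TPM with rapamycin. *Tsc2* RNA was thus present in every library labelled as lacking the gene, as was *Trp53* RNA (26.3 and 28.5 TPM) in the MEFs labelled p53-/-, and libraries are named by their labels throughout. The study reports a check that its *Tsc2*-/- MEFs, which carry a deletion, did not express *Tsc2*. RNA summed over transcripts does not show an intact gene or a protein, so these values do not contradict the labels. Of 12 epithelial markers outside the 92 genes, 8 reached 1 TPM in each kidney library, against 0 in *Tsc2*+/+ and 2 in *Tsc2*-/- MEFs, and their summed level was 208 to 285 TPM in the kidney libraries. Of 12 kidney tubule markers, 5 reached 1 TPM in each kidney library, *Pax2*, *Pax8* and *Cdh16* among them, whereas the segment markers *Umod* and *Slc34a1* were at 0. Fibroblast markers summed to 2096 and 2581 TPM in the MEFs and to between 7.88 and 52.5 TPM in the kidney libraries.

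Of the 92 genes, 16 had no estimated count in any library, 59 stayed under 1 TPM in all 6, and 33 reached 1 TPM in at least 1 library. In the MEF pair 21 of the 92 reached 1 TPM in either library, against 12771 of all 30281 symbols. The numbers were 25 against 12046 in the MKOC pair and 24 against 12121 in the TJ pair. 24 reached 10 TPM: 5 keratins, 7 claudins, 1 desmosomal cadherin, 5 plaque genes, and the remainder other tight junction genes and *Cdsn*. Summed over the 92 genes, the level in the *Tsc2*+/+ MEF library was 212 TPM, that in the *Tsc2*-/- library 429.8 TPM, and it was 1831 and 1797 TPM in untreated MKOC and TJ cells, and 2720 and 2721 TPM after rapamycin. The kidney libraries thus held at least 1797 TPM of these transcripts and the MEF libraries at most 429.8 TPM. In these bulk libraries, fewer cells of a type and less RNA per cell cannot be told apart.

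**Figure D1:**
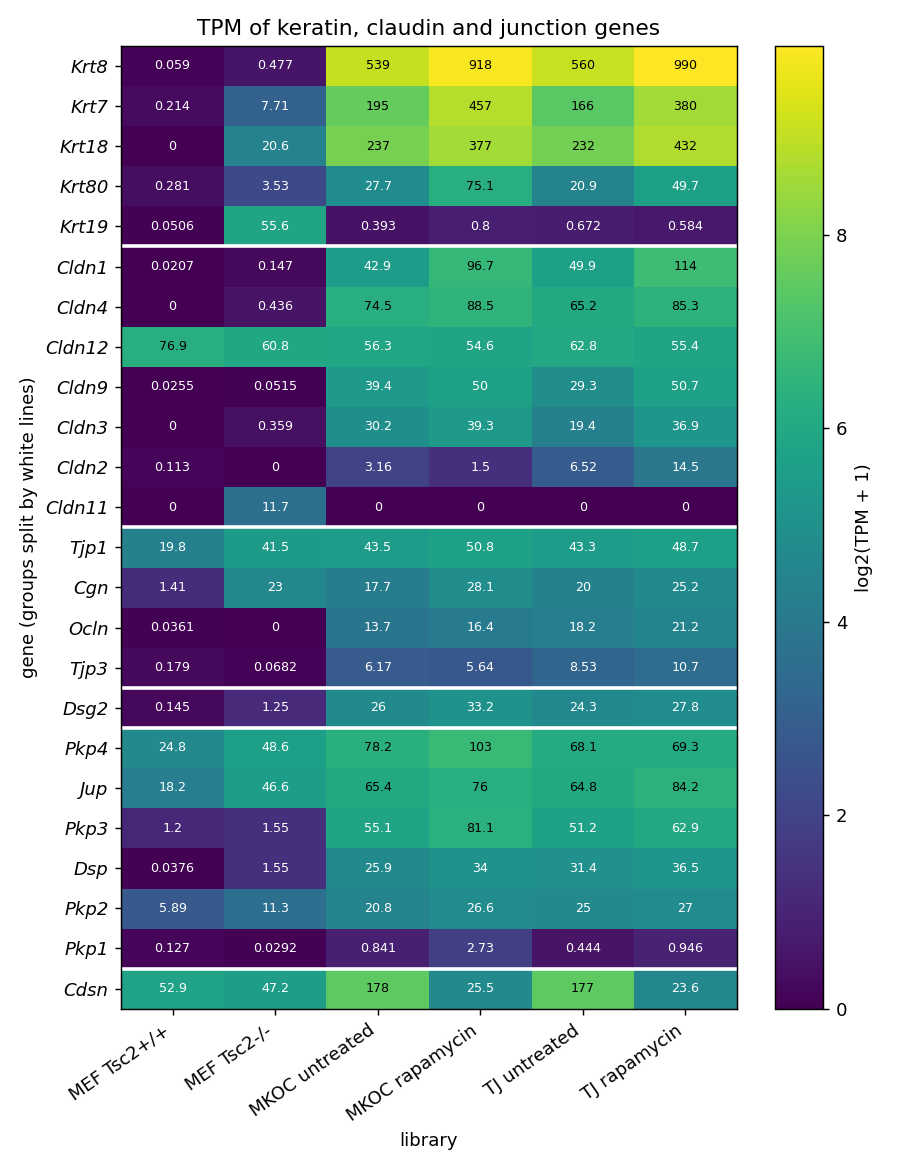
TPM of the named genes (rows, with families split by white lines) in the 6 libraries (columns), printed in each cell and colored by log2(TPM + 1). *Krt8* leads in the kidney libraries, with 539 to 990 TPM, *Cldn12* is at 54.6 to 76.9 TPM in every library, and *Krt19* and *Cldn11* are highest in *Tsc2*-/- MEFs.

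The kidney lines carried a simple-epithelial keratin set. *Krt8* (type II) was at 0.0590 and 0.477 TPM in *Tsc2*+/+ and *Tsc2*-/- MEFs, at 539 and 560 TPM in untreated MKOC and TJ cells, and at 918 and 990 TPM after rapamycin. Its partner *Krt18* (type I) was at 0 and 20.6 TPM in the MEFs, at 237 and 232 TPM in untreated kidney cells, and at 377 and 432 TPM after rapamycin. For both genes every kidney library lay above both MEF libraries, and both treated libraries lay above both untreated ones. *Krt7*, a type II keratin of ducts and other simple epithelia, was at 0.214 and 7.71 TPM in the MEFs, 195 and 166 TPM in untreated MKOC and TJ cells and 457 and 380 TPM after rapamycin. *Krt80*, a type II keratin, was at 0.281 and 3.53 TPM in the MEFs, 27.7 and 20.9 TPM in untreated kidney cells and 75.1 and 49.7 TPM after rapamycin. *Krt8*, *Krt7* and *Krt80* were the only type II keratins of 21 that reached 1 TPM in any library.

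*Krt19*, the smallest type I keratin, ran the other way. Its level was 0.0506 and 55.6 TPM in *Tsc2*+/+ and *Tsc2*-/- MEFs, and between 0.393 and 0.800 TPM in the kidney libraries, where it rested on 6 to 12 counts. *Krt19* was therefore high in 1 library of 6. *Krt20*, a keratin of urothelium and gut, was at 0 in both MEF libraries and between 4.38 and 5.72 TPM in the kidney libraries. *Krt10*, *Krt14*, *Krt15*, *Krt16* and *Krt42*, also type I, peaked at between 1.10 and 5.27 TPM, and *Krt10* (1.52 to 2.13 TPM in the MEFs) was at 0 in all kidney libraries. The other 36 keratins stayed under 1 TPM everywhere. *Krt7*, *Krt8*, *Krt10*, *Krt80*, *Cldn3*, *Dsg2*, *Dsp*, *Tjp1* and *Tjp3* are overlapped by a gene on the opposite strand in the annotation, and *Tjp1* and *Pkp1* by genes on the same strand. The libraries were made with a stranded kit, but whether Kallisto was run with a strand setting is not given in the sources used here.

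Summed by type, the MEF and kidney libraries differed in balance. Type I keratins summed to 245 and 240.1 TPM in untreated MKOC and TJ cells and type II to 761 and 748 TPM, which is 3.11 type II transcripts per type I transcript in each. After rapamycin the ratio was 3.77 in MKOC cells and 3.21 in TJ cells. In *Tsc2*-/- MEFs it was 0.137, with 86.5 TPM of type I against 11.8 TPM of type II, and in *Tsc2*+/+ MEFs both sums were at most 2.73 TPM. *Krt18* made up 96.7 to 97.9% of type I transcripts in the kidney libraries, whereas *Krt19* made up 64.3% in *Tsc2*-/- MEFs. The ratio of *Krt8* to *Krt18* was between 2.28 and 2.44 in the 4 kidney libraries and 0.0232 in *Tsc2*-/- MEFs, where *Krt8* rested on 12 counts and *Krt18* on 388. The ratio thus differed by little among the kidney libraries, with or without rapamycin.

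**Figure D2:**
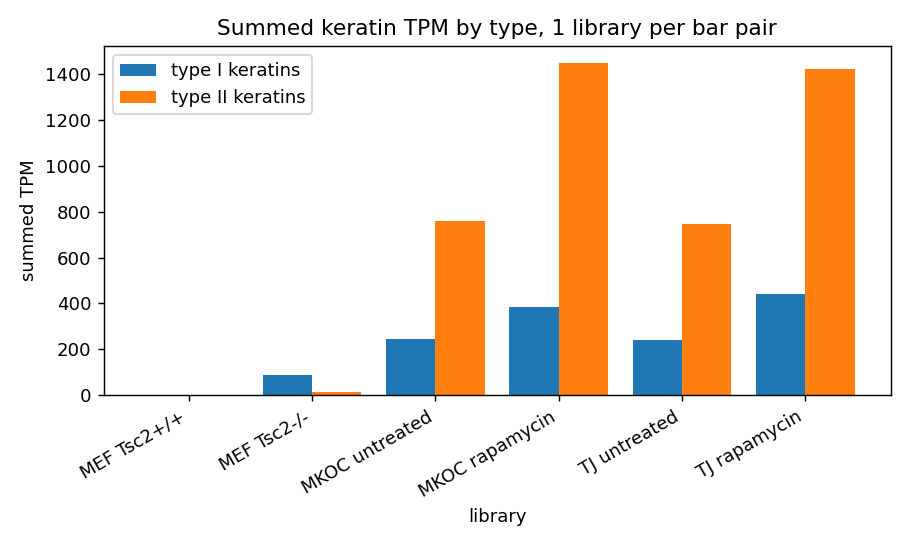
Summed TPM of type I and type II keratins in each of the 6 libraries, 1 bar per type and library, with no error bar because each condition is 1 library. Type II transcripts exceed type I in the kidney libraries (761 against 245 TPM in untreated MKOC cells), and type I exceed type II in *Tsc2*-/- MEFs (86.5 against 11.8 TPM).

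*Krt8*, *Krt18*, *Krt7* and *Krt80* lie together on chromosome 15, where *Krt18* is the 1 type I keratin placed among the type II genes, the other 25 being on chromosome 11. By GENCODE M21 (GRCm38), *Krt8* and *Krt18* are 23.7 kb apart with 0 coding genes between them, and *Krt7* and *Krt80* are 40.9 kb apart, also with 0. *Krt19* is 4.88 kb from *Krt15* on chromosome 11, and both were highest in *Tsc2*-/- MEFs, with *Krt15* at 5.27 TPM there. Upstream sequence is shown for the kidney keratins that moved together under rapamycin and are in the RefSeq table. Each is the 250 bases before the RefSeq start on GRCm38.p6, 5′ to 3′, with matches to a GC box (GGGCGG, either strand) in capitals. The windows are chr15:102004343-102004592 (minus strand) for *Krt8*, chr15:102027966-102028215 (plus strand) for *Krt18* and chr15:101412153-101412402 (plus strand) for *Krt7*. GENCODE M21 places the first base of these genes elsewhere, at 102004482 (*Krt8*, minus strand), 102028180 (*Krt18*) and 101411043 (*Krt7*), so by that annotation the *Krt7* window lies inside the gene and the other windows overlap it.
Krt8: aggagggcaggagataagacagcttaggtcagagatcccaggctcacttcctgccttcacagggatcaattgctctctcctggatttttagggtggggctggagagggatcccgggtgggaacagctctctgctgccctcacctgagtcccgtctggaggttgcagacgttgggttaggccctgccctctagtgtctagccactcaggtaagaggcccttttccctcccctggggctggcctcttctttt
Krt18: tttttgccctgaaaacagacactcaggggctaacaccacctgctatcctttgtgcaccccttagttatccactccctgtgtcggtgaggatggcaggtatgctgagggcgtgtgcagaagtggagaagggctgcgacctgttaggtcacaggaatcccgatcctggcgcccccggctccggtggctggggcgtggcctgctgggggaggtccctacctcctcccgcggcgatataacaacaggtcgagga
Krt7: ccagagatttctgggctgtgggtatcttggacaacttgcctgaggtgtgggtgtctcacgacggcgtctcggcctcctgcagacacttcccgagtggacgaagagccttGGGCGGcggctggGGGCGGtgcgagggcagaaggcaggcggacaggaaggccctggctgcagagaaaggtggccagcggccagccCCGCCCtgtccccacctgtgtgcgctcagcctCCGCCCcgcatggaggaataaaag
The *Krt7* window held 4 GC box matches, beginning 141, 128, 56 and 24 bases before the start, and the windows of *Krt8* and *Krt18* held 0, although their GC content was 58.0 and 60.4% against 66.0% for *Krt7*. Of 32536 promoter windows of this length, 33.0% held a GC box, and 19 of the 62 genes of the set with a window did. None of the 3 windows held a TATA box (TATAAA, in 12.3% of all windows), an AP-1 site (TGANTCA, 6.73%) or an E-box core (CACGTG, 6.04%), which says only that these letters are not in these windows. No match overlapped another.

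Among claudins, 1 was abundant in all libraries and 4 were high in the kidney libraries only. *Cldn12* was between 54.6 and 76.9 TPM in all 6 libraries, with the highest value in *Tsc2*+/+ MEFs. It made up 98.7% of claudin transcripts in *Tsc2*+/+ MEFs and 76.8% in *Tsc2*-/- MEFs. *Cldn1*, a barrier-forming claudin, was at 0.0207 and 0.147 TPM in the MEFs, at 42.9 and 49.9 TPM in untreated MKOC and TJ cells and at 96.7 and 114 TPM after rapamycin. *Cldn4*, a claudin of distal tubule and collecting duct, was at 0 and 0.436 TPM in the MEFs, 74.5 and 65.2 TPM in untreated kidney cells, and 88.5 and 85.3 TPM after rapamycin. The kidney and MEF values of *Cldn1* and *Cldn4* did not overlap, and the treated values lay above the untreated ones for both. *Cldn3* followed with 0 and 0.359 TPM in the MEFs, 30.2 and 19.4 TPM in untreated kidney cells and 39.3 and 36.9 TPM after rapamycin. *Cldn9* was at 0.0255 and 0.0515 TPM in the MEFs, 39.4 and 29.3 TPM in untreated kidney cells and 50.0 and 50.7 TPM after rapamycin. *Cldn4* was the leading claudin in the untreated kidney lines (30.2 and 27.9% of claudin transcripts) and *Cldn1* in the treated ones (29.2 and 31.9%).

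Neighboring claudin genes did not always share a level. *Cldn3* and *Cldn4* lie 39.3 kb apart on chromosome 5 with 0 coding genes between them, and both were high in the kidney lines. *Cldn9* and *Cldn6* lie only 137 bases apart on chromosome 17, on opposite strands, yet *Cldn6* did not exceed 0.167 TPM in any library. *Cldn2*, a claudin that forms cation and water pores in the proximal tubule, was at 3.16 TPM in untreated and 1.50 TPM in treated MKOC cells, and at 6.52 and 14.5 TPM in untreated and treated TJ cells. *Cldn11*, known from oligodendrocytes and Sertoli cells, was at 11.7 TPM in *Tsc2*-/- MEFs and at 0 in the 5 other libraries. *Cldn15* was highest in the same library, at 5.50 TPM, and at most 0.454 TPM elsewhere. *Cldn7* and *Cldn8*, claudins of the collecting duct, had no estimated count in any library. *Cldn1* is shown for its upstream sequence, chr16:26371840-26372089 (minus strand), since it was the claudin that rose most under rapamycin, with GC boxes again in capitals.
Cldn1: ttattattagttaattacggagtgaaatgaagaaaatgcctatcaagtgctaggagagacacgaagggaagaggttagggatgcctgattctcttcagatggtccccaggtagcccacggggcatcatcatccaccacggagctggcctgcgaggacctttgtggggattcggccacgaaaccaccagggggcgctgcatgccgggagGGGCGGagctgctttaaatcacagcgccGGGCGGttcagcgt
The window held 2 GC box matches, 42 and 14 bases before the start, and 0 matches to the other motifs.

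Several scaffold genes of the tight junction were also present in MEFs, while its membrane protein occludin was nearly absent there. Occludin (*Ocln*) was at 0.0361 and 0 TPM in the MEFs and between 13.7 and 21.2 TPM in the kidney libraries. *Tjp1*, the zonula occludens protein ZO-1, was at 19.8 and 41.5 TPM in the MEFs and 43.3 to 50.8 TPM in the kidney libraries. For *Tjp1* the kidney values lay above both MEF values, but *Tsc2*-/- MEFs lay nearer to the kidney lines than *Tsc2*+/+ MEFs did. *Tjp3* was at 0.179 and 0.0682 TPM in the MEFs, 6.17 and 8.53 TPM in untreated and 5.64 and 10.7 TPM in treated MKOC and TJ cells. Cingulin (*Cgn*) was at 1.41 TPM in the *Tsc2*+/+ library, while *Tsc2*-/- MEFs had 23.0 TPM, a value inside the kidney range of 17.7 to 28.1 TPM.

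Of the desmosomal cadherins, only *Dsg2* reached 1 TPM in the kidney libraries. *Dsg2*, the desmoglein of simple epithelia, was at 0.145 and 1.25 TPM in the MEFs, 26.0 and 24.3 TPM in untreated MKOC and TJ cells and 33.2 and 27.8 TPM after rapamycin. No desmocollin accompanied it: *Dsc2* had 0 counts in all kidney libraries and 1.33 TPM in *Tsc2*-/- MEFs. The other 7 desmosomal cadherins stayed under 1 TPM, led by *Dsg3* at 0.382 TPM in untreated TJ cells. *Dsp*, which ties the plaque to keratin filaments, was at 0.0376 and 1.55 TPM in the MEFs, 25.9 and 31.4 TPM in untreated kidney cells and 34.0 and 36.5 TPM after rapamycin. *Jup*, which also serves adherens junctions, was at 18.2 and 46.6 TPM in the MEFs, 65.4 and 64.8 TPM in untreated kidney cells and 76.0 and 84.2 TPM after rapamycin. *Dsg2* and *Dsp* were thus near 0 in *Tsc2*+/+ MEFs and low in *Tsc2*-/- MEFs, whereas *Jup* was present in every library.

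The 4 plakophilins, armadillo proteins of the plaque, differed in level. *Pkp3* was at 1.20 and 1.55 TPM in the MEFs, 55.1 and 51.2 TPM in untreated MKOC and TJ cells and 81.1 and 62.9 TPM after rapamycin. *Pkp4* was at 24.8 and 48.6 TPM in the MEFs, 78.2 and 68.1 TPM in untreated kidney cells and 103 and 69.3 TPM after rapamycin. *Pkp2* was at 5.89 and 11.3 TPM in the MEFs and between 20.8 and 27.0 TPM in the kidney libraries. All 3 were higher in every kidney library than in either MEF library, and *Pkp3* by the widest margin relative to its MEF level. *Pkp1*, a plakophilin of stratified epithelia, was low: 0.127 and 0.0292 TPM in the MEFs, 0.841 and 0.444 TPM in untreated kidney cells and 2.73 and 0.946 TPM after rapamycin.

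*Cdsn*, corneodesmosin, a secreted adhesive protein known from the corneodesmosomes of cornifying epidermis, stood apart from all of these. Its level was 52.9 and 47.2 TPM in *Tsc2*+/+ and *Tsc2*-/- MEFs, 178 and 177 TPM in untreated MKOC and TJ cells, and 25.5 and 23.6 TPM after rapamycin. The untreated kidney lines were the highest libraries and the treated ones the lowest, below both MEFs. The estimated counts behind these levels were 4149, 1823, 8949, 7997, 992 and 1068. *Cdsn* has 1 transcript in the files (ENSMUST00000044804) and lies on chromosome 17 from 35552128 to 35557180 on the plus strand. Of the 9 keratinocyte markers, the cornification genes *Lor*, *Ivl* and *Flg* were near 0, and *Sprr1b* led with 91.2 and 153 TPM in untreated MKOC and TJ cells and 41.4 and 63.4 TPM after rapamycin. The list summed to 96.5 and 162 TPM untreated and 47.8 and 73.7 TPM treated, against at most 1.34 TPM in MEFs, and its part in the *Cdsn* values was not tested. The 250 bases upstream of *Cdsn*, chr17:35551878-35552127 (plus strand), are shown because it was the 1 gene of the set called lower under rapamycin.
Cdsn: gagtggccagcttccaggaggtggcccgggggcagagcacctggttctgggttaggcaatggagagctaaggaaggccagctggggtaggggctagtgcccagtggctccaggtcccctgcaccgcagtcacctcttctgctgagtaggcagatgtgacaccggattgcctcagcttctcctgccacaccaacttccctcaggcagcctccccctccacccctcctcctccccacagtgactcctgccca
The window held 0 matches to the 4 motifs. *Epcam*, an adhesion protein of most epithelia that also binds claudins, had 10 estimated counts in *Tsc2*-/- MEFs, 1 in untreated MKOC cells and 0 in the other 4 libraries, the kidney lines labelled epithelial included.

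The first comparison asked which of these genes separated the kidney lines from MEFs, with the 2 untreated kidney libraries set against the 2 MEF libraries. Across all genes, 9.93% of 13473 tested passed an adjusted p of 0.05 (edgeR's quasi-likelihood test, Benjamini-Hochberg), 4.74% higher and 5.20% lower in the kidney lines. Of the 92 genes, 31 passed the filter on low counts and 11 were called, 10 higher and 1 lower in kidney. Of the 11, *Pkp3* and *Cdsn* were well counted in both groups. The others had at most 16 counts in each library of the group where they were low and passed the filter only through the group where they were high, so they had to differ, and their calls and the count of 11 are given as a description. The higher ones were *Krt8*, *Krt20*, *Cldn1*, *Cldn4*, *Cldn9*, *Ocln*, *Tjp3*, *Dsg3*, *Pkp3* and *Cdsn*, and the lower one was *Krt10*, a keratin of suprabasal epidermis. *Krt8* stood at 587 and 611 CPM (counts relative to library size) in untreated MKOC and TJ cells and at 0.0803 and 0.502 CPM in *Tsc2*+/+ and *Tsc2*-/- MEFs, the latter on 3 and 12 counts. *Pkp3* was higher by 5.49 ± 0.32 (log2, SE, adjusted p = 0.0128) and *Cdsn* by 1.69 ± 0.28 (adjusted p = 0.0440). *Krt20* and *Dsg3*, with 0 counts in MEFs, were at least 106-fold and at least 18.7-fold higher, taking 3 counts over the MEF libraries as the floor. In the alternative settings that left out no library, 2 of the 11 lost their call in some setting. *Dsg3* was among them, not called with limma on log2(TPM + 1) (adjusted p = 0.167) or without the filter (0.0744).

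Several genes detected in *Tsc2*-/- MEFs did not pass this test. *Krt18* (adjusted p = 0.246), *Krt7* (0.122), *Dsp* (0.118) and *Dsg2* (0.0544) were higher in both kidney libraries than in either MEF library without being called. *Cldn12* (adjusted p = 0.513) and *Cgn* (0.696) showed no difference past the threshold. With 1 library left out, an arm holds 1 library, which is assumed to vary like the other arm. Without untreated MKOC or without untreated TJ cells, where the spread is that between the MEF libraries of different genotype, 0 of the genes were called by edgeR, with 13 at an unadjusted p under 0.05 in each case, and no other tool was run there. Without the *Tsc2*-/- or without the *Tsc2*+/+ MEF library, where it is that between the kidney lines, 30 of 34 and 31 of 36 tested were called, against 56.1% and 47.7% of all genes, and DESeq2 on all 4 libraries called 23 of 31, against 29.5% of all genes. As above, these counts include genes that passed the filter only through the group where they are high, and are a description.

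The second comparison, between MEFs labelled *Tsc2*-/- and *Tsc2*+/+, is the mouse genotype comparison of the study, and has 1 library per genotype and therefore no test. *Krt19*, *Krt18* and *Cldn11* showed the largest rises in the *Tsc2*-/- library. Of the 21 genes with at least 1 TPM in either library, 14 were at least 2-fold higher and 0 at least 2-fold lower on log2(TPM + 1), a scale that understates changes of low genes. Over all 12771 genes with that level, 30.4% passed 2-fold, 25.2% higher and 5.18% lower, and the median log2 change was 0.45, against 1.31 for the 21. The *Tsc2*+/+ library held 20.9% of its TPM on transcripts under 300 bases, against 7.12% in the *Tsc2*-/- library, and the part of this shift in the levels was not tested. *Krt19* rose by 5.75 on this scale, from 1 to 1014 estimated counts, a CPM ratio of 1585 (95% counting interval 284 to 62682). *Krt18* differed by 4.43 (0 against 388 counts) and was at least 202-fold higher in CPM over a floor of 3 counts. *Cldn11* differed by 3.66 (0 against 305 counts, at least 159-fold higher).

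The other genes past 2-fold in the MEFs were keratins, a claudin, *Dsc2*, and scaffold and plaque genes. *Cgn* differed by 3.32, *Krt7* by 2.84, *Krt15* by 2.56, *Cldn15* by 2.16 and *Krt80* by 1.82. *Krt14* (1.34), *Jup* (1.31), *Dsp* (1.30), *Dsc2* (1.22) and *Tjp1* (1.03) passed 2-fold by less, and *Tjp1* only on TPM, its CPM ratio being 1.79 (1.71 to 1.88), while *Dsg2* (0.98), *Pkp4* (0.95) and *Pkp2* (0.84) lay just under it on this scale, although the CPM ratio of *Dsg2*, at 80 against 16 counts, was 7.80 (4.53 to 14.3). *Cldn12* (-0.33) and *Cdsn* (-0.16) were the abundant genes that did not follow. The keratin partner *Krt8* was at 0.477 TPM in *Tsc2*-/- MEFs, on 12 counts against 3 in *Tsc2*+/+ MEFs, a CPM ratio of 6.25 (1.69 to 34.5), while the type II keratins there summed to 11.8 TPM, of which *Krt7* gave 7.71 TPM. Mesothelial markers moved in the same direction: 7 of 8 reached 1 TPM in *Tsc2*-/- MEFs and 1 in *Tsc2*+/+ MEFs, with summed levels of 505 and 2.66 TPM, *Calb2* being at 0 in both. Of the 12 epithelial markers, 2 reached 1 TPM in *Tsc2*-/- MEFs, with a sum of 11.9 TPM. Their part in the keratin and claudin values was not tested.

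**Figure D3:**
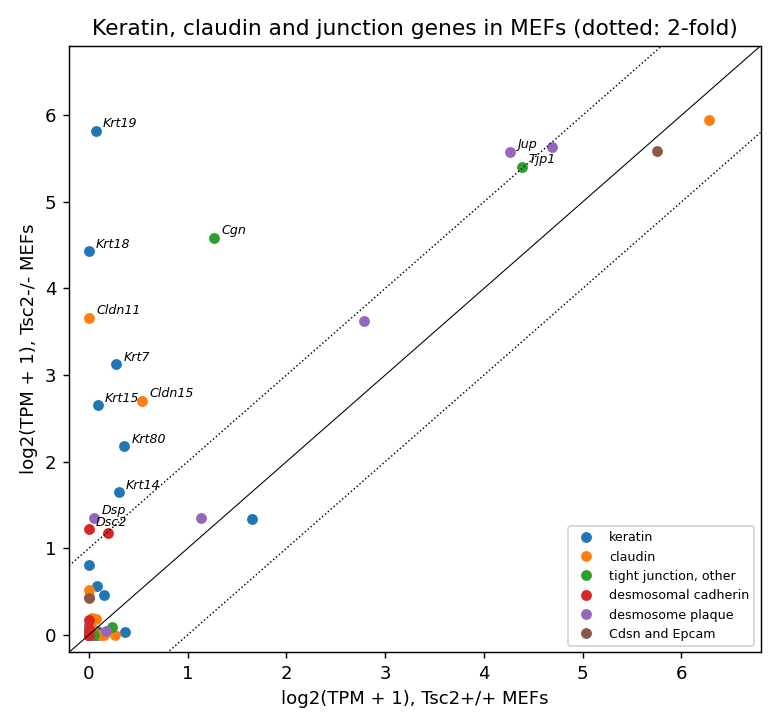
Level of the genes of the set in *Tsc2*-/- MEFs (vertical axis) against *Tsc2*+/+ MEFs (horizontal axis), both as log2(TPM + 1), 1 point per gene colored by family, with the line of equal levels and dotted lines at 2-fold, 1 library per genotype and so no error bar. *Krt19*, *Krt18* and *Cldn11* lie at the left edge and far above the upper dotted line, and no point with at least 1 TPM lies below the lower one.

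The third comparison asked how the genes responded to rapamycin in the kidney lines, with the line as a covariate and the 2 lines as replicates. *Krt7*, *Krt8*, *Krt18* and *Krt80* rose, as did 4 of the 6 claudins and 4 of the 6 plaque genes tested, and *Cdsn* fell. Of 12952 genes tested, 34.9% were called, 17.5% higher and 17.4% lower, and the median log2 change was 0.02. Of the 92 genes, 29 passed the filter and 16 were called, 15 higher and 1 lower, with a median of 0.33. With the line fitted, the p-values rest on how far the response to rapamycin differed between these 2 lines. This spread is steadied in edgeR by that of all tested genes, and spread between cultures of a line is not measured. *Cdsn* fell by 2.87 ± 0.10 (log2, SE, adjusted p = 8.1e-07), which is 7.30-fold. Its CPM ratio was 0.146 in MKOC cells (95% counting interval 0.136 to 0.156) and 0.136 in TJ cells (0.127 to 0.145), so the fall was of like size in each line.

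The keratins that rose were those already high in the kidney lines. *Krt80* rose by 1.34 ± 0.11 (adjusted p = 3.3e-05) and *Krt7* by 1.16 ± 0.10 (adjusted p = 3.3e-05). *Krt8* rose by 0.79 ± 0.10 (adjusted p = 4.3e-04) and *Krt18* by 0.78 ± 0.10 (adjusted p = 4.2e-04), the partners by 1.73-fold and 1.71-fold. Both were higher with rapamycin in each line. Of the 8 keratins tested, the other 4 (*Krt14*, *Krt16*, *Krt20* and *Krt42*) were not called, and *Krt20* differed by 0.31 (adjusted p = 0.278).

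Of 6 claudins tested, 4 rose. *Cldn1* rose by 1.17 ± 0.10 (adjusted p = 2.9e-05), *Cldn3* by 0.64 ± 0.15 (adjusted p = 0.00888), *Cldn9* by 0.56 ± 0.13 (adjusted p = 0.00886) and *Cldn4* by 0.31 ± 0.10 (adjusted p = 0.0430). *Cldn12* differed by -0.13 ± 0.10 (adjusted p = 0.346), and *Cldn2* by 0.38 ± 0.35 (adjusted p = 0.432). The wide error of *Cldn2* came with opposite directions in the lines: CPM with rapamycin was 0.583 times the untreated value in MKOC cells (0.431 to 0.782) and 2.28 times in TJ cells (2.01 to 2.61). Among the other tight junction genes, *Cgn* rose by 0.49 ± 0.12 (adjusted p = 0.00936). *Tjp1* (0.19), *Ocln* (0.24) and *Tjp3* (0.10) were not called.

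In the desmosome, 1 of 3 cadherins tested and 4 of 6 plaque genes rose. *Pkp1* rose by 1.41 ± 0.27 (adjusted p = 0.00335), from at most 0.841 TPM, and *Pkp3* by 0.46 ± 0.11 (adjusted p = 0.00942). *Jup* rose by 0.42 ± 0.10 (adjusted p = 0.0113), *Dsp* by 0.33 ± 0.10 (adjusted p = 0.0266) and *Dsg2* by 0.29 ± 0.10 (adjusted p = 0.0471). The other 2 cadherins tested were lower with rapamycin in each line without being called: *Dsg3* differed by -1.20 ± 0.43 (adjusted p = 0.0532) and *Dsg1b* by -0.75 ± 0.51 (adjusted p = 0.286), each on at most 27.1 counts per library. *Pkp2* differed by 0.22 (adjusted p = 0.159) and *Pkp4* by 0.23 (adjusted p = 0.0980). *Cldn4*, *Dsp* and *Dsg2* had the smallest called changes and were not called by DESeq2 (adjusted p = 0.121, 0.0629 and 0.130).

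The count of called genes leaned on the pairing and on each library. Without the line as a replicate block, 7 of the 16 were called. Leaving out 1 library, which leaves no block to fit, gave 4 calls without treated MKOC cells, 1 without untreated MKOC cells, 4 without treated TJ cells and 0 without untreated TJ cells (edgeR, with 9 at an unadjusted p under 0.05 in the last case, no other tool run). All 16 kept their direction in each of these fits.

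**Figure D4:**
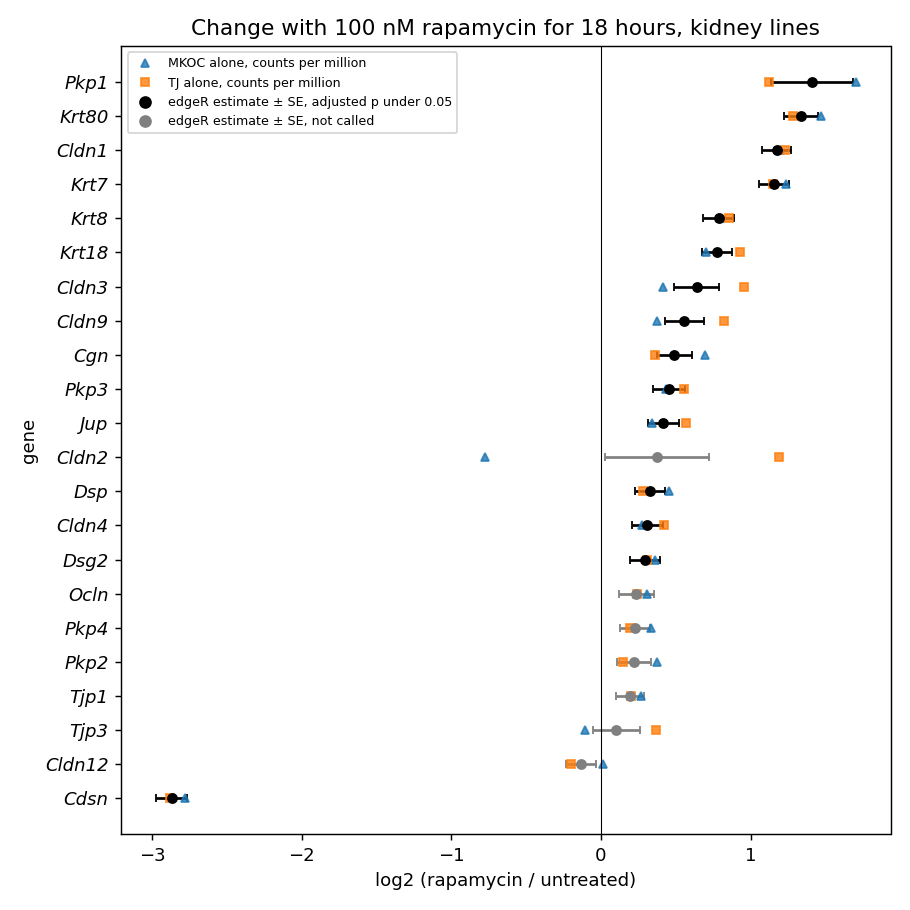
Log2 ratio of rapamycin to untreated for the named genes tested, with genes in rows: circles are the edgeR estimate over the 4 kidney libraries with its standard error (black where called, gray where not), and triangles and squares are the CPM ratios of MKOC and TJ cells alone. *Cdsn* lies at -2.87, *Pkp1*, *Krt80*, *Cldn1* and *Krt7* lie above 1, and the lines lie on opposite sides of 0 for *Cldn2* and, by less, for *Tjp3* and *Cldn12*, whose MKOC ratios have counting intervals that include 1.

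Line by line, with 1 library each and no test, 5 of 25 genes at 1 TPM or more in MKOC cells passed 2-fold on log2(TPM + 1), 4 higher and 1 lower, against 6.22% of all genes (3.80% higher, 2.42% lower). They were *Krt7*, *Krt80*, *Cldn1* and *Pkp1*, higher, and *Cdsn*, lower. In TJ cells 5 of 24 passed, also 4 higher and 1 lower, against 5.66% of all genes (3.42% higher, 2.24% lower). They were *Krt7*, *Krt80*, *Cldn1* and *Cldn2*, higher, and *Cdsn*, lower. *Krt7*, *Krt80*, *Cldn1* and *Cdsn* thus passed in each line.

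Genes that work with this set were read in the same fit. Of 29 tested junction and polarity partners, 11 rose and 2 fell, with a median of 0.21, against 17.5% and 17.4% of all genes. The largest were plakins, the linkers of intermediate filaments: *Ppl* (periplakin) rose by 1.56 ± 0.10 (adjusted p = 8.9e-06), *Plec* (plectin) by 1.10 ± 0.11 (adjusted p = 7.9e-05) and *Evpl* (envoplakin) by 0.94 ± 0.14 (adjusted p = 9.1e-04). *Ppl* went from 14.2 and 15.2 TPM in untreated MKOC and TJ cells to 43.5 and 43.7 TPM. Of 7 other intermediate filament and lamin genes tested, 3 rose and 0 fell, led by vimentin (*Vim*), by 0.66 ± 0.12 (adjusted p = 0.00279), with *Nes* at 0.60 and *Lmna* at 0.43. *Vim*, the mesenchymal intermediate filament, was at 4676 and 3609 TPM in the untreated kidney lines, above their *Krt8*.

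Of 16 regulators of epithelial genes tested, 4 rose and 2 fell, a share close to the 34.9% called over all genes. *Snai2*, a repressor of epithelial junction genes, fell by 1.98 ± 0.27 (adjusted p = 5.1e-04), from 5.33 and 3.40 TPM in untreated MKOC and TJ cells to 1.39 and 0.841 TPM. *Trp63*, a regulator of stratified epithelia, rose by 1.66 ± 0.34 (adjusted p = 0.00411), but from 0.372 and 0.415 TPM. *Ehf* rose by 0.68 ± 0.13 in estimated counts (adjusted p = 0.00287), while its TPM went from 2.09 to 2.22 in MKOC cells and from 24.3 to 32.2 in TJ cells, a smaller change. Beside these, 4 of 9 tested epithelial markers rose, as did 1 of 7 kidney tubule, 2 of 7 fibroblast, 1 of 2 mesothelial, 0 of 2 endothelial and 1 of 2 macrophage markers, and 0 of these fell. In the keratinocyte list, 1 of 4 rose and 1 fell. The part of these markers in the rises was not tested.

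The last comparison set tumor-derived TJ cells against MKOC cells, with treatment as a covariate. Of all genes tested, 8.79% were called, 5.47% higher and 3.32% lower in TJ cells, and 5 of the 29 genes of the set were, 3 higher and 2 lower. *Cldn2* was higher in TJ cells by 2.22 ± 0.35 (adjusted p = 0.00442) and *Tjp3* by 0.68 ± 0.16 (adjusted p = 0.0272). For *Cldn2* this value averages unlike gaps: 3.16 TPM in MKOC against 6.52 TPM in TJ cells untreated, and 1.50 against 14.5 TPM with rapamycin. *Krt16*, a keratin of stressed epidermis, was higher by 1.98 ± 0.50 (adjusted p = 0.0387), at no more than 1.10 TPM. *Krt80* was lower in TJ cells by 0.52 on the log2 scale (SE 0.11, adjusted p = 0.0194), and *Pkp1* by 1.27 (SE 0.27, adjusted p = 0.0194). Without treated MKOC cells the direction of *Krt80* turned, to 0.32 higher in TJ cells (not called). The main keratins, *Cldn1*, *Cldn4* and the plaque genes other than *Pkp1* were not called. These tests speak of 2 lines only, and DESeq2 and limma on log2(TPM + 1) each called 1 of the 5. Leaving out 1 library left 0 calls without either MKOC library or without treated TJ cells (1, 3 and 5 at an unadjusted p under 0.05, edgeR), and 1 without untreated TJ cells.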

How the data were processed

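The authors trimmed the reads and quantified transcripts with Kallisto, and deposited, per transcript and library, an estimated count and a TPM value for 88198 transcripts. The study's methods name a human reference, whereas the deposited identifiers are those of Ensembl mouse transcripts, and whether Kallisto used the strand of these stranded libraries is not given in the sources used here. The deposited fold change, a ratio per transcript between the MEF libraries, served only as the source of symbols. 1006 transcripts without one (0.372 to 0.468% of counts) were left out, and for 8 transcripts with 2 symbols the first was used. Positions came from GENCODE M21 (GRCm38) and upstream sequences from RefSeq (GRCm38.p6), which held 62 of the 92 genes.

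Estimated counts and TPM were summed per symbol. After rounding, low counts were removed by filterByExpr and libraries scaled by TMM. Differences were tested in edgeR (quasi-likelihood), and p-values were adjusted by Benjamini-Hochberg over all genes, with a threshold of 0.05. The line was the covariate for rapamycin, as the labels name the line of each library. Deviations of the 2 libraries of a line from the treatment means correlated at 0.562 over 12952 genes, a value that 2 lines share by construction. Comparisons of 1 library with 1 library used log2(TPM + 1) and a change of 2-fold, without a test. Intervals (95%, exact) and floors of 3 counts cover counting error only. Replicates are cell lines, except for TJ against MKOC cells, where they are the untreated and the treated library of each line. Nothing in the labels says that libraries of a line came from separate cultures.

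Named were all genes of the set with at least 10 TPM in a library and all called under rapamycin, other genes at counts of 5 or fewer or singled out by their values, and from each list of partner genes the 3 with the largest called change. 1 gene of the set is not reported here by name or in the plots, and counts and sums include it. The genes, lists and tests were chosen with earlier results of these data known. Alternatives were RLE size factors, DESeq2, limma-trend, no filter, transcripts of at least 300 bases, no block, and leaving out libraries. For comparisons of 1 library with 1 library they were other pseudocounts, TPM scaled to a median ratio of 1, CPM, and transcripts of at least 300 bases. In data simulated for the rapamycin comparison, with 200 of 12952 genes changed by 2 on the log2 scale, more than most changes reported here, edgeR recovered 200 with 8 false calls. The changed genes were all well counted, every gene had the same fixed spread, and both lines responded alike. The simulation therefore does not show how the fit does with low counts, smaller changes or lines that respond differently. The tools were Python 3.11.15, pandas 2.3.3, scipy 1.17.1 and R 4.3.3 with DESeq2 1.42.0, edgeR 4.0.16 and limma 3.58.1.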

Additional observations from a re-analysis of the deposited data

Results flagged for a closer look

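*Cldn2* stood out because it moved in opposite directions under rapamycin in the kidney lines. The CPM ratio (counts relative to library size), rapamycin over untreated, was 0.583 in MKOC cells (67 against 151 estimated counts) and 2.28 in TJ cells (756 against 337). The counting intervals, 0.431 to 0.782 and 2.01 to 2.61, did not overlap, but they cover counting error only. With 1 library per line and treatment the difference between the lines was not tested.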

How the results depend on the processing

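For rapamycin, the 16 calls were 16 with RLE size factors, without the filter and with transcripts of at least 300 bases, and 13 with DESeq2 or limma-trend. Without the replicate block 7 were called, and with 1 library left out, also without the block, between 0 and 4. In those fits *Tjp3*, not called, turned to -0.062 without untreated MKOC cells and -0.38 without treated TJ cells, and *Cldn2*, not called, to -1.60 without treated TJ cells. *Cdsn* stayed between -2.80 and -2.94, with adjusted p from 0.00833 to 0.0577, the last without untreated TJ cells. For TJ against MKOC cells, the 5 calls became 1 with DESeq2 and 1 with limma-trend, and between 0 and 1 with a library left out, where *Krt80* turned to 0.32 without treated MKOC cells. For kidney lines against MEFs, the 11 calls (9.93% of all genes) became 23 with DESeq2 (29.5% of all genes), 19 with all 6 libraries (23.4%), and between 0 and 31 with a library left out (between 0 and 56.1%), counts that include genes that passed the filter only through the group where they are high. The cause was not tested. For the MEFs, the 14 genes past 2-fold became 8 with a pseudocount of 5 and, over all 92 genes, 26 with a pseudocount of 0.1 (23 higher, 3 lower), with which genes under 1 TPM can pass. In each line, 5 became 8 (MKOC) and 9 (TJ) in the same way. Among genes at 1 TPM or more, an alternative chosen after seeing the data, a pseudocount of 0.1 gave 15 in the MEFs (15 higher, 0 lower), 6 in MKOC and 5 in TJ cells. With 1 library per condition, the MEF and single-line values have no replicate check, and counts limit what can be said of *Krt8* and *Krt19* outside the libraries where they are high.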

Other observations

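The kidney lines differed in a regulator of epithelial genes outside the set. *Ehf*, an ETS factor of epithelia, was at 2.09 and 2.22 TPM in untreated and treated MKOC cells and at 24.3 and 32.2 TPM in TJ cells, with no overlap between the lines. Of 16 regulators tested, 4 were higher and 0 lower in TJ cells by the edgeR fit, against 5.47% of all genes called higher and 3.32% called lower. *Trp63* reached 1.50 TPM in treated TJ cells and stayed under 1 TPM in the other libraries. *Klf4*, a factor of epithelial differentiation, fell under rapamycin by 0.68 on the log2 scale (SE 0.12, adjusted p = 0.00228), from 35.9 and 44.8 TPM in untreated MKOC and TJ cells to 26.4 and 24.9 TPM.

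*Vim* was lowest in *Tsc2*-/- MEFs, at 1118 TPM, against 3522 TPM in *Tsc2*+/+ MEFs and 3609 to 7523 TPM in the kidney libraries, so the library with the most *Krt19* had the least *Vim*.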
